A study of Mus musculus with 2 samples.

Results

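Osteopontin (Spp1), thrombospondin 1 (Thbs1), fibronectin (Fn1), tenascin C (Tnc) and Sparc are secreted proteins of the extracellular matrix that are not collagens, and Cd44, Cd47, Itgav, Itgb1 and Itga5 encode cell-surface receptors that bind them. These 10 genes were taken by symbol from the 24377 genes with a count in liver, and each symbol was found once. They were selected on their counts in both libraries, with the ratios between the pools known, so these ratios are a description and no test was made on them. Hepatic RNA came from male C57BL/6J mice aged 9 to 11 weeks, purchased animals that were fasted for 10 h before an intraperitoneal dose of 300 mg/kg acetaminophen (APAP) and had free access to food afterwards. In 1 group, mice received 4 oral doses of 5 mg/kg AZD7986, an inhibitor of the protease cathepsin C, at -12, 0, 12 and 24 h relative to APAP. The other group received 4 administrations of the vehicle solution instead. Livers were taken 30 h after APAP, RNA of the 8 mice of a group was mixed in equal shares, and each mixture gave 1 library. Mice without APAP are not analysed here, so all levels below are those of injured liver.

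The library of the vehicle pool held 7657855 counts and that of the AZD7986 pool 6700838, each count being the 3′ end of 1 transcript molecule after removal of duplicates. Levels are given as normalized counts, the count divided by the size factor of its library (1.10 for the vehicle pool and 0.910 for the AZD7986 pool), and a ratio is the level in the AZD7986 pool over that in the vehicle pool. With 1 library per group there is no replicate check of any difference. The exact 95% interval in brackets after a ratio covers counting error only, and leaves out the variation between mice and between library preparations. A gene is called lower when its ratio is at most 0.5 and its interval lies below 1, and higher when its ratio is at least 2 and its interval lies above 1. All 10 genes passed the minimum summed count of 20 that was set for the 13523 genes compared. Hepatocyte markers were abundant in both libraries, as in albumin (Alb), which had 267058 and 217749 counts in vehicle and AZD7986 pool (ratio 0.984 [0.978, 0.990]), and apolipoprotein A1 (Apoa1, 1.09 [1.08, 1.10]).

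Matrix glycoproteins of this kind are scarce or silent in the resting liver apart from plasma fibronectin, which hepatocytes secrete into the blood, and they accumulate where tissue is wounded. Cells attach to them through integrins, pairs of an α and a β subunit that recognise the tripeptide Arg-Gly-Asp in fibronectin and osteopontin, and through CD44 and CD47. Osteopontin is made in the liver by biliary epithelium and by macrophages of injured tissue, and thrombospondin 1 is released by platelets and made by endothelial cells, macrophages and fibroblasts. A 3′ count does not tell splice forms apart, so plasma and cellular fibronectin, or the variants of CD44, were counted together.

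Promoter windows from 250 bases before to 50 bases after the start site were found for 8 of the 10 genes in the RefSeq table of build GRCm38.p6. Thbs1 and Fn1 had no entry. Shown are Spp1 and Tnc, both called lower, and Cd47, whose ratio was nearest to 1. Capitals mark the letters TATAAA and GGGCGG, searched on both strands, and each sequence reads 5′ to 3′ on the strand of its gene.
Spp1, chr5:104434861-104435160, plus strand: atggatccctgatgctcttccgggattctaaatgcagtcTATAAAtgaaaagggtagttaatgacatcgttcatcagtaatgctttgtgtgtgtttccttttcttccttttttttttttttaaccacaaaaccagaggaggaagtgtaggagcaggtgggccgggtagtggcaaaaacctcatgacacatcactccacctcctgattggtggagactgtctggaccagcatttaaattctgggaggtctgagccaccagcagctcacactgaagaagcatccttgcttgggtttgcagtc
Tnc, chr4:64046966-64047265, minus strand: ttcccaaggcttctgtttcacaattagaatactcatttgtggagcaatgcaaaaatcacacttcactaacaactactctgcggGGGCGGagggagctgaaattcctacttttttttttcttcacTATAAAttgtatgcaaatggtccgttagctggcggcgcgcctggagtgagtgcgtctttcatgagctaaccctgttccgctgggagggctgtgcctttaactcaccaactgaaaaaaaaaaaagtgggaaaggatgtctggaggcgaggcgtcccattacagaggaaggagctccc
Cd47, chr16:49855404-49855703, plus strand: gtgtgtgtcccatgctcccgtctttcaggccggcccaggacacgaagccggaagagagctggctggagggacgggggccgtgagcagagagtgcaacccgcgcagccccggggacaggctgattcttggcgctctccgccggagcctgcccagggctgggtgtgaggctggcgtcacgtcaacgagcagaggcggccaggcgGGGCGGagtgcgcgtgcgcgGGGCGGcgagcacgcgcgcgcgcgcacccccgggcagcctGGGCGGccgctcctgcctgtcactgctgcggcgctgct

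The letters TATAAA begin at position -211 from the start site in the Spp1 window shown and at -126 in the Tnc window shown. They were found in no window of the other 6 genes. They occur in 13.6% of the 32851 windows of the table. The GC box letters GGGCGG were found in the windows of Tnc and of all 5 receptors but not in those of Spp1 and Sparc, and occur in 35.7% of all windows. The AP-1 letters TGAGTCA and TGACTCA (5.20% of all windows) were found in none of the 8 genes, and the TEAD letters GGAATG (14.7%) in Itgb1 alone, at -7. A second RefSeq window of Spp1 further downstream held none of these letters, and the second windows of Tnc and Cd47 overlap those shown. These are matches of letters and say nothing of what binds there.

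Osteopontin had the lowest ratio of the 10 genes. Spp1 (ENSMUSG00000029304, chromosome 5, 104435118 to 104441050 on mm10, plus strand) had 1164 counts with vehicle and 270 with AZD7986, which normalize to 1060 and 297. The ratio was 0.280 [0.244, 0.320], which is a level 3.57 times as high in the vehicle pool. Among the 13523 genes compared, 46 had a lower ratio, and the most counted of these 46 had a summed count of 72, against 1434 for Spp1. Spp1 therefore had the lowest ratio of the 8894 genes with a summed count of 100 or more.

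Thrombospondin 1 was next in order. Thbs1 (ENSMUSG00000040152, chromosome 2, 118111876 to 118127133, plus strand) had 155 and 41 counts, or 141 and 45.0 normalized counts in the vehicle and the AZD7986 pool. Its ratio of 0.319 [0.221, 0.453] was rank 85 from the lowest, and its interval overlaps that of Spp1.

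Fibronectin accounted for most of the difference between the pools in number of transcripts. Fn1 (ENSMUSG00000026193, chromosome 1, 71585520 to 71653200, minus strand) had 6492 and 2850 counts, or 5909 and 3131 normalized counts, and was the 155th most counted gene of liver. The ratio of 0.530 [0.507, 0.554] lies just outside the threshold of 0.5, so Fn1 is not called lower. At a level 1.89 times as high in the vehicle pool, the 2778 normalized counts by which it was lower with AZD7986 make up 61.7% of the summed difference of the 10 genes, and those of Spp1 16.9%. Hepatocytes are a known source of Fn1, and of 11 hepatocyte markers 0 were called lower: 7 had intervals above 1 and 3 below, with a median log2 ratio of 0.13. Those 3 were the fibrinogen chain Fgb (54691 and 33774 counts, ratio 0.745 [0.735, 0.756]), Ahsg (0.981 [0.970, 0.992]) and Alb (0.984 [0.978, 0.990]). The 7 above 1 included the plasma proteins Ttr (1.34 [1.33, 1.35]) and Serpina1a (1.16 [1.14, 1.18]). The antisense gene Apol7d, which overlaps exons of Fn1, had 1 and 4 counts.

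Tenascin C, a matrix protein of wounds and embryos, was the third gene called lower. Tnc (ENSMUSG00000028364, chromosome 4, 63959785 to 64047015, minus strand) had 142 and 56 counts, or 129 and 61.5 normalized counts, and its ratio of 0.476 [0.343, 0.653] was the one just inside the threshold. Its interval reaches above 0.5 and overlaps that of Fn1, so the call that separates the 2 genes is within counting error.

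Sparc, a collagen-binding glycoprotein of endothelial and stellate cells, was the ligand with the ratio closest to 1. It (ENSMUSG00000018593, chromosome 11, 55394500 to 55423183, minus strand) had 1732 and 1155 counts, or 1577 and 1269 normalized counts, with a ratio of 0.805 [0.746, 0.868]. The interval lies below 1 and above those of the other 4 ligands, which were therefore lower in proportion than Sparc by more than counting error.

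**Figure D1:**
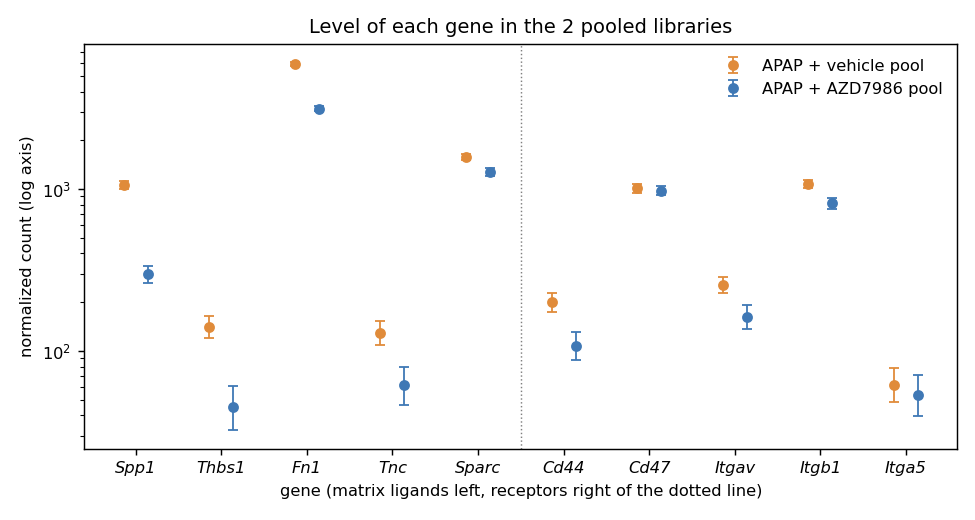
Normalized count (log axis) of each gene in the APAP and vehicle pool (orange) and the APAP and AZD7986 pool (blue), 1 library each. Bars are exact 95% Poisson intervals of the count and cover counting error only. The intervals of the pools are apart for Spp1, with 1060 and 297 normalized counts, and nearly coincide for Cd47, with 1009 and 976.

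The receptors lay closer to 1 than most of the ligands, and CD44 was the lowest of them. Cd44 (ENSMUSG00000005087, chromosome 2, 102811141 to 102901665, minus strand), a receptor of hyaluronan and osteopontin on leukocytes and other cells, had 220 and 98 counts, or 200.3 and 108 normalized counts. The ratio was 0.538 [0.419, 0.685], which is not a lower call by its size, and lay next to that of Fn1.

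Itgav (ENSMUSG00000027087, chromosome 2, 83724397 to 83806916, plus strand), the αv subunit of several integrins that bind osteopontin and fibronectin, had 281 and 148 counts, or 256 and 163 normalized counts, at a ratio of 0.636 [0.517, 0.778]. Itgb1 (ENSMUSG00000025809, chromosome 8, 128685654 to 128733200, plus strand), the β1 subunit shared by many integrins, had 1181 and 741 counts, or 1075 and 814 normalized counts, at a ratio of 0.757 [0.690, 0.831]. Both subunits thus had intervals below 1 without a lower call.

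For the remaining receptors the interval contained 1. Itga5 (ENSMUSG00000000555, chromosome 15, 103344286 to 103366763, minus strand), whose product pairs with β1 as the classical fibronectin receptor, was the least counted of the 10 genes, with 68 and 49 counts, or 61.9 and 53.8 normalized counts. Its ratio was 0.870 [0.590, 1.27], an interval that holds both 1 and the ratio of Itgav, 0.636. Cd47 (ENSMUSG00000055447, chromosome 16, 49800533 to 49915010, plus strand), a receptor of thrombospondin 1 and the signal by which cells hold off phagocytes, had 1109 and 888 counts, or 1009 and 976 normalized counts. At a ratio of 0.966 [0.884, 1.06], counting error alone leaves room for a Cd47 level from 11.6% lower to 5.65% higher in the AZD7986 pool. Variation between mice and between library preparations is not part of that range.

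**Figure D2:**
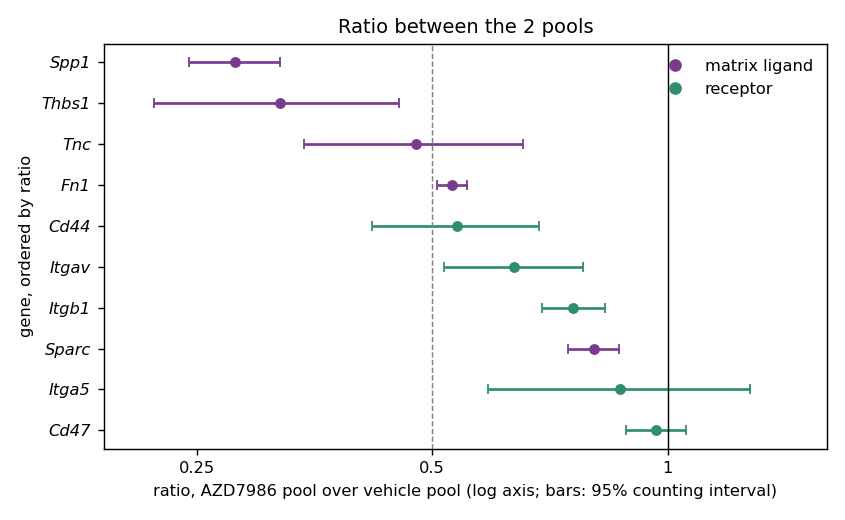
Ratio of the AZD7986 pool over the vehicle pool (log axis) for each gene, ordered by size, with exact 95% counting intervals. The solid line marks 1 and the dashed line 0.5. Spp1, at 0.280, Thbs1 and Tnc lie to the left of the dashed line, and the intervals of Itga5 and Cd47 cross 1.

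In the order of ratios from Spp1 to Cd47, the intervals of every pair of neighbours overlap, so the intervals set no gene apart from the next. Overlap of intervals is not a test of a step in the order. Of the 10 genes, 3 were called lower and 0 higher, against 2.87% of the 13523 genes called lower and 1.85% called higher. Intervals lay below 1 for 8 of the 10 and above 1 for 0, against 15.1% and 17.9% of all genes. Genes with many counts have narrow intervals, and each of the 10 had a summed count above 100. Among the 8894 genes that reached a summed count of 100, 0.944% were called lower, 0.798% were called higher, 18.0% had an interval below 1 and 24.1% one above 1. The median log2 ratio of the 10 genes was -0.77, that of the 5 ligands -1.07 and that of the 5 receptors -0.40, beside -0.02 over all genes compared. Without Spp1 and Thbs1, the median of the other 8 was -0.53, with 1 called lower. Without scaling for library size, which shifts every log2 ratio by -0.27, 5 of the 10 were at 0.5-fold or less, Fn1 and Cd44 included. Since the genes were picked with these ratios known, nothing is read from the distance to the background.

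**Figure D3:**
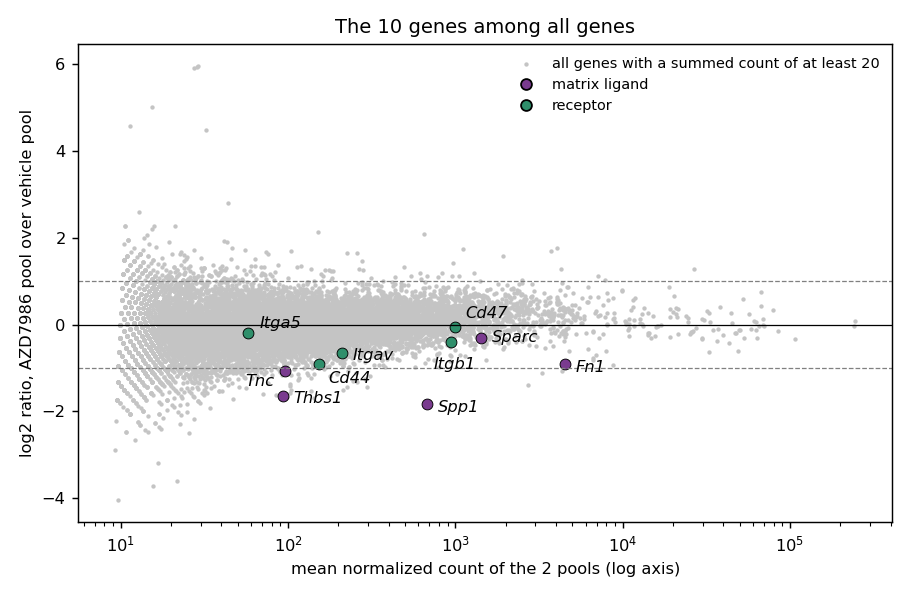
Log2 ratio (AZD7986 pool over vehicle pool) against the mean normalized count of the pools (log axis) for the 13523 genes compared (grey), with the 5 matrix ligands (purple) and the 5 receptors (green). Dashed lines mark a 2-fold difference either way. All 10 genes lie below 0, with Spp1 at -1.84 and Cd47 at -0.05.

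Shares within a library do not depend on how the libraries were scaled. Each transcript is counted once at its 3′ end, so these are shares of counted molecules, not corrected for how well each end is captured. Of the 9685 counts of the 5 ligands in the vehicle pool, Spp1 made up 12.0% (95% Wilson interval 11.4 to 12.7), and of the 4372 in the AZD7986 pool 6.18% (5.50 to 6.93). Sparc went the other way, with 17.9% (17.1 to 18.7) and 26.4% (25.1 to 27.7). Fn1 made up 67.0% (66.1 to 68.0) and 65.2% (63.8 to 66.6), intervals that overlap. The ligands were therefore not lower in equal proportion: osteopontin took a smaller share in the AZD7986 pool, Sparc a larger one, and fibronectin stayed the most counted in both.

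Among the 2859 receptor counts of the vehicle pool and the 1924 of the AZD7986 pool, Cd47 made up 38.8% (37.0 to 40.6) and 46.2% (43.9 to 48.4). Cd44 made up 7.70% (6.77 to 8.73) and 5.09% (4.20 to 6.17). The share of Itgb1 was 41.3% (39.5 to 43.1) and 38.5% (36.4 to 40.7), and that of Itga5 2.38% (1.88 to 3.00) and 2.55% (1.93 to 3.35). For the pair that forms the fibronectin receptor the intervals of the pools overlap, at 0.0576 counts of Itga5 per count of Itgb1 with vehicle (exact interval 0.0444 to 0.0736) and 0.0661 with AZD7986 (0.0485 to 0.0883).

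**Figure D4:**
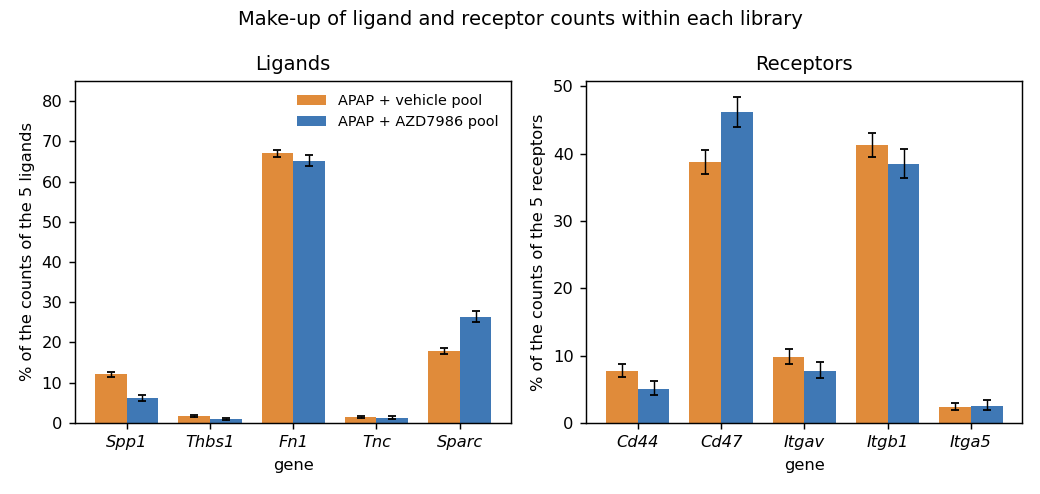
Percent of the counts of the 5 ligands (left) and of the 5 receptors (right) taken by each gene within the vehicle pool (orange) and the AZD7986 pool (blue). Bars are shares and lines their 95% Wilson intervals. Spp1 went from 12.0% to 6.18% of ligand counts and Sparc from 17.9% to 26.4%.

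Osteopontin and thrombospondin 1 were also set against a receptor of theirs within each library. Per Cd44 count there were 5.29 Spp1 counts with vehicle (exact interval 4.58 to 6.14) and 2.76 with AZD7986 (2.18 to 3.51). For Thbs1 per Cd47 count the values were 0.140 (0.117 to 0.165) and 0.0462 (0.0329 to 0.0631). For both pairs the intervals of the pools are apart, so the ligand was lower in proportion than its receptor. For Fn1 per Itga5 count, 95.5 (75.2 to 123) and 58.2 (43.9 to 78.8), the intervals of the pools overlap, and Itga5 was sparsely counted. That overlap does not make the genes alike. The ratio interval of Fn1, 0.507 to 0.554, lay below that of Itga5, 0.590 to 1.27, so Fn1 too was lower in proportion.

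Other matrix glycoproteins included 3 of 36 genes called lower and 0 called higher. The median log2 ratio was -0.32, with 12 intervals below 1 and 1 above, and a further 21 genes of the list had too few counts. Called lower were the basement membrane linker nidogen 1 (Nid1, 270 and 99 counts, ratio 0.443 [0.348, 0.559]), fibulin 2 (Fbln2, 27 and 9 counts, 0.402 [0.166, 0.881]) and Emilin2 (28 and 11 counts, 0.474 [0.213, 0.982]), a protein of elastic fibres. The most counted, vitronectin (Vtn), is a plasma protein of hepatocytes that carries the same integrin-binding tripeptide, and it had 11934 and 10080 counts (1.02 [0.993, 1.05]), unlike Fn1. The small proteoglycan decorin (Dcn) stood at 0.825 [0.763, 0.891], near Sparc, and the secreted glycoprotein Ecm1 at 1.19 [1.05, 1.36]. Among close relatives of Thbs1, Thbs2 had 10 and 9 counts and Thbs3 had 1 and 2, too few for a ratio.

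Other integrin subunits had 2 of 14 genes called lower, 0 higher and a median log2 ratio of -0.51, with 5 intervals below 1 and 0 above. Itga3, a partner of β1 in laminin receptors of epithelia, had 51 and 12 counts (0.284 [0.138, 0.540]), and Itgb3, a partner of αv that binds osteopontin and fibronectin, had 48 and 18 (0.453 [0.248, 0.792]). The β5 subunit, another partner of αv, lay closer to 1 (Itgb5, 275 and 208 counts, 0.913 [0.759, 1.10]). The collagen-binding Itga1 (313 and 200 counts) stood at 0.771 [0.643, 0.924], and Itga9, whose product binds osteopontin and tenascin C, at 0.754 [0.568, 0.996], both near Itgb1.

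Further receptors and partners of these ligands had a median log2 ratio of -0.19, with 2 of 15 genes called lower and 0 higher. The endothelial receptor Cd93 had 407 and 136 counts (0.403 [0.330, 0.491]), and the collagen receptor kinase Ddr1 had 31 and 11 (0.428 [0.194, 0.875]). The most counted were Calr (0.991 [0.960, 1.02]), a chaperone that binds thrombospondin 1 when at the cell surface, basigin (Bsg, 1.38 [1.31, 1.46]), and the heparan sulfate co-receptor Sdc4 (0.924 [0.869, 0.982]).

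Genes that anchor integrins to the actin cytoskeleton had 3 of 36 called lower and 0 higher, with a median log2 ratio of -0.33, 16 intervals below 1 and 1 above. Called lower were the endocytic adaptor Dab2 (203 and 84 counts, 0.499 [0.383, 0.647]), the signalling scaffold Git1 (64 and 22, 0.415 [0.243, 0.683]) and β-parvin (Parvb, 48 and 19, 0.478 [0.265, 0.828]). The most counted were the small GTPase Rap1b (0.866 [0.777, 0.965]) and the actin cross-linker Actn4 (0.718 [0.641, 0.804]), with the kindlin Fermt2 at 0.963 [0.848, 1.09].

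Hyaluronan and CD44 partners held no called gene among 18, with 7 intervals below 1, 6 above and a median log2 ratio of -0.09. The most counted were products of hepatocytes, namely Ambp (1.13 [1.11, 1.15]), Itih4 (1.09 [1.06, 1.12]) and Itih3 (1.21 [1.17, 1.24]). TGF-β, which integrins with αv and thrombospondin 1 can release from its latent form, had 2 of 9 genes of its storage and receptor list called lower, 0 higher and a median of -0.62. These were Tgfb2 (29 and 8 counts, 0.333 [0.132, 0.746]) and Tgfb3 (30 and 11 counts, 0.443 [0.200, 0.908]). The most counted of that list were Tgfbr1 (0.836 [0.687, 1.01]), Tgfbr2 (0.649 [0.504, 0.832]) and Lrrc32, an anchor of latent TGF-β (0.666 [0.489, 0.901]).

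**Figure D5:**
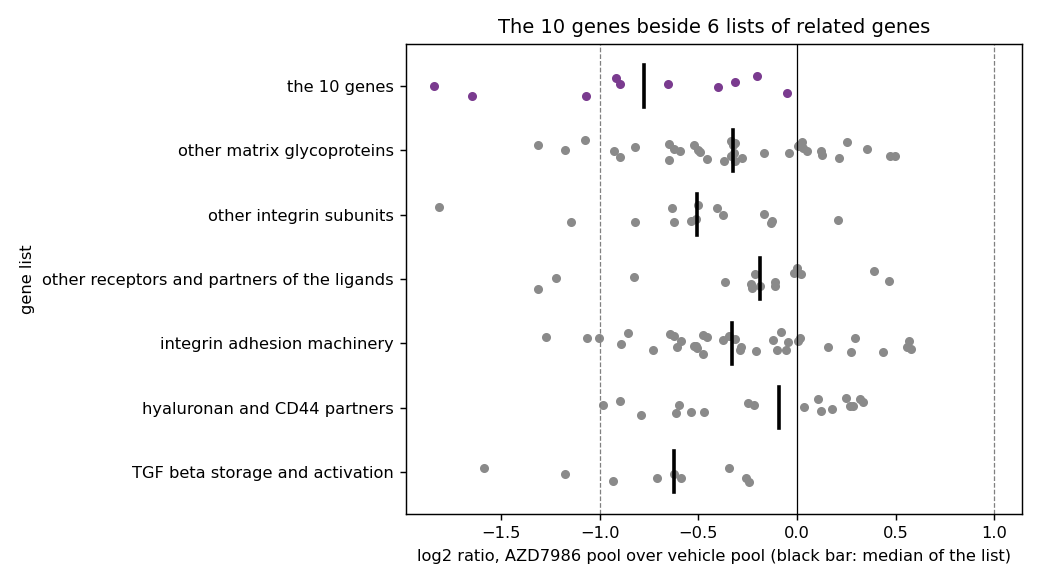
Log2 ratio (AZD7986 pool over vehicle pool) of the 10 genes (purple) and of 6 lists of related genes (grey), for genes that reached a summed count of 20. Black bars are medians and dashed lines a 2-fold difference either way. Medians run from -0.77 for the 10 genes to -0.09 for hyaluronan and CD44 partners.

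In a tissue homogenate, fewer cells of a type and less RNA per cell cannot be told apart, and levels of cell type markers also differed between the pools. Markers of infiltrating macrophages summed to 4477 normalized counts with vehicle and 3387 with AZD7986. Of these 14 genes, 1 was called lower, the transglutaminase gene F13a1, 0 were higher, 9 intervals lay below 1 and 0 above, and the median log2 ratio was -0.48. Lyz2 (0.806 [0.753, 0.863]) and Lgals3 (0.778 [0.703, 0.859]) were the most counted, and their intervals lay above that of Spp1. Neutrophil markers summed to 1106 and 559, with 4 of 7 genes called lower and a median of -1.30. The most counted were S100a8 (0.371 [0.306, 0.448]) and S100a9 (0.405 [0.329, 0.497]). Csf3r (0.189 [0.0574, 0.488]) and Il1r2 (0.241 [0.0821, 0.589]) were also called lower. The protease gene Prtn3 had 228 and 189 counts, or 208 normalized counts in each pool. The other neutrophil serine protease genes of the list were near 0, Elane with 3 and 0 counts and Ctsg with 0 and 2. The Prtn3 counts are therefore not read as a measure of immature neutrophils. The defining marker Ly6g had 0 and 2 counts.

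Cholangiocyte markers, which mark the epithelium where Spp1 is made in the resting liver, summed to 359 and 198 normalized counts, with 2 of 6 genes called lower and a median log2 ratio of -0.83. Sox9 had 211 and 74 counts (0.423 [0.320, 0.554]), an interval that borders on that of Spp1. Epcam, the other gene called lower, had 20 and 5 counts, and Krt19 had 17 and 5. Platelet markers summed to 331 and 275, with 1 of 4 genes called lower. It was the platelet chemokine Pf4 (178 and 61 counts, 0.414 [0.304, 0.556]), while Clec1b, also found on liver endothelium, stood at 1.36 [1.08, 1.73] and the defining markers Gp5 (0 and 2 counts) and Treml1 (1 and 0) were near 0.

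Stellate cell and fibroblast markers summed to 2697 and 2331 normalized counts, with 0 of 15 genes called lower, 1 higher (Colec11), 8 intervals below 1 and 2 above, and a median of -0.28. The most counted were Ecm1, whose ratio of 1.19 lay above 1, and the contractile protein gene Tagln (0.822 [0.704, 0.959]), which was close to Sparc. Other markers with an interval below 1 had lower ratios. Among them were Acta2 (0.509 [0.416, 0.621]), Col1a1 (0.580 [0.473, 0.708]), Col1a2 (0.606 [0.475, 0.770]) and Pdgfrb (0.636 [0.456, 0.879]). Colec11 went the other way, at 2.01 [1.59, 2.55]. The other 5 intervals held 1, with ratios above 1 for Lrat (1.18), Reln (1.30) and Hand2 (1.65) and below 1 for Des (0.844) and Pdgfra (0.623). Endothelial markers summed to 2368 and 2154, with 1 of 14 genes called lower (the lymphatic receptor Flt4), 0 higher and a median of -0.27. Of their intervals 5 lay below 1 and 3 above. Eng (0.875 [0.757, 1.01]) and Fcgr2b (0.782 [0.666, 0.916]) were counted most. Pecam1 (0.584 [0.471, 0.720]) and Lyve1 (0.578 [0.436, 0.760]) were also below 1, while Clec4g (1.46 [1.21, 1.76]) and Gpr182 (1.57 [1.13, 2.19]) were above 1. So was Oit3, with 105 and 157 normalized counts. Kupffer cell markers summed to 5306 and 5066, with 0 of 12 called either way, 3 intervals below 1 and 4 above, and a median of 0.03. Cd5l (1.04 [0.956, 1.12]) and Slc40a1 (0.693 [0.624, 0.769]) had the most counts. The intervals above 1 were those of Clec4f (335 and 435 normalized counts), Timd4 (1.54 [1.05, 2.28]), Cd163 (1.56 [1.14, 2.13]) and C1qa (1.24 [1.10, 1.40]). Mesothelial markers were too sparse, with 1 of 4 genes reaching a summed count of 20 (Gpm6a, 15 and 13 counts). The part of these cell types in the levels of the 10 genes was not tested.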

How the data were processed

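Liver RNA of 2 groups was measured in 1 pooled library each, grouped by sample title. The authors sequenced transcript 3′ ends (MACE; the labels and the study's methods name different kits), removed duplicates by molecular identifiers, trimmed with cutadapt, clipped poly(A), mapped to mm10 and deposited counts per gene from HTSeq. DESeq2 is also named in their processing notes. The aligner, annotation release, versions and strand setting were not given in the sources used here. Not used were 6 columns whose names match no label and 4 columns of values normalized by the authors.

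Size factors came from DESeq2 1.42.0 and TMM factors from edgeR 4.0.16 (R 4.3.3). Ratios were computed, with exact intervals from the share of a gene's counts that fell in the AZD7986 pool, in Python 3.11.15 with scipy 1.17.1, and the script was tested on simulated data with 200 changed genes. A count of 0 was set to 1 for a ratio, which touched none of the 10 genes. Rows without a symbol (3.70% and 3.71% of counts) were kept. List genes without a row in the table are not analysed here. Coordinates are from GENCODE M21 and promoters from RefSeq. No test between groups is possible with 1 library each. The genes and all lists were chosen with earlier results of these data known. Named are the 10 genes, the 3 most counted and up to 3 called genes either way of each related list, and the 2 most counted markers of each cell type, of which 1 is not reported here; Fgb, Thbs2, Thbs3 and further markers were named after their values were seen. Alternatives were other scalings, other minimum counts, a stricter interval and 0.5 added to scaled counts.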

Additional observations from a re-analysis of the deposited data

How the results depend on the processing

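No paired analysis was possible because each group has 1 library, and no library could be left out for the same reason. Without scaling, which shifts every log2 ratio by -0.27, 5 of the 10 genes were called lower (Fn1 and Cd44 joined Spp1, Thbs1 and Tnc), the median log2 ratio of the 10 became -1.05 and Cd47 stood at -0.32, while 6.97% of all genes were then called lower and 0.703% higher. Under TMM or library-total scaling, a minimum summed count of 10, 100 or none, a stricter interval, 0.5 added to the scaled counts, or protein-coding genes only (chosen after seeing the data), 3 of the 10 were called lower, 0 higher and 8 had an interval below 1. The median of the 10 ranged from -0.85 with library totals to -0.77. The calls in the related lists depended more on these choices. With a minimum summed count of 100, genes called lower fell from 3 to 1 for other matrix glycoproteins, from 2 to 0 for other integrin subunits, from 2 to 1 for further receptors and partners, from 3 to 1 for the integrin adhesion genes and from 2 to 0 for TGF-β storage and receptors. With the stricter interval they were 1, 1, 1, 2 and 0 in that order. Without scaling, 6 other matrix glycoproteins, 6 integrin adhesion genes and 3 hyaluronan and CD44 partners were lower, the last against 0 in the main values and 1 with library totals. Depth limits Itga5 most, with 68 and 49 counts.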
